A study of Mus musculus with 8 samples.

Results

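The 7 genes described here make, load, clear and sense GABA, the main inhibitory transmitter of the dorsal horn beside glycine: Gad1, Gad2, Slc32a1, Slc6a11, Abat, Gabbr1 and Gabbr2. They were taken by symbol from the 49585 gene identifiers that stood in each deposited file, and each symbol matched a single identifier, so that all 7 were measured. The libraries were made from polyadenylated RNA of the dorsal horn of lumbar segments 4 to 6 of adult C57BL/6J mice. There were 4 libraries from wild-type mice and 4 from miR-96 knock-out mice, with no other treatment named in the labels. The title of the series concerns miR-96, voltage-gated sodium channels and allodynia, pain evoked by normally harmless touch, and the GABA genes belong to the inhibitory side of the same circuit. How the knock-out allele was made, in which cells it acts, or whether each library came from a separate animal is not stated in the labels. The p-values below therefore describe how these libraries scatter, and some of that scatter may be technical.

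Inhibitory neurons convert glutamate to GABA with 2 decarboxylases, GAD67 (Gad1) and GAD65 (Gad2), and load it into synaptic vesicles with the vesicular transporter VGAT (Slc32a1), which carries glycine as well. Released GABA is taken up by neurons and astrocytes and broken down by GABA transaminase (Abat). GABA-B receptors are G protein-coupled heterodimers of the Gabbr1 and Gabbr2 products that damp transmitter release and open potassium channels, and the GABA-B agonist baclofen acts on them in the spinal cord.

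A microRNA represses messages by pairing of its seed, bases 2 to 8, with sites in the 3′ untranslated region (UTR). The longest annotated coding transcript UTR of each of the 7 genes was searched on the sense strand for GTGCCAA, the complement of the miR-96 seed, and for TGCCAAA, the 7-base form that ends in A. These forms overlap where GTGCCAAA occurs, and such a site was counted as 1. Gad2 held 3 sites in a UTR of 3528 nt, Abat held 1 in 2942 nt, and the UTRs of Gad1, Slc32a1, Slc6a11, Gabbr1 and Gabbr2 (744 to 2479 nt) held neither form. Of 13058 tested genes with a UTR of at least 50 nt, 20.5% held a site of either form, 3.12% held the 8-base GTGCCAAA and 0.858% held at least 3 sites. The sequences are shown because they are the only matches of these forms in the UTRs searched. Shorter matches, other UTR forms and coding sequence were not searched. The microRNA is from RefSeq (GRCm38.p6, chr6:30169506-30169528, minus strand) with its seed in capitals, and the sites are from GENCODE transcripts (GRCm38, plus strand) with the matched bases in capitals, at chr2:22690833-22690862, chr2:22692834-22692863 and chr2:22693683-22693712 in Gad2 and at chr16:8621436-8621465 in Abat, from the top.
mmu-miR-96-5p: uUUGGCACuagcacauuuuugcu
Gad2, bases 498 to 505 of the UTR: agtaataaataGTGCCAAAtcacccttgaa
Gad2, bases 2499 to 2505 of the UTR: ccaaatccccaGTGCCAAtggtctctatct
Gad2, bases 3348 to 3354 of the UTR: aaagatcttgtTGCCAAAtggtgtttctga
Abat, bases 2821 to 2827 of the UTR: aaccgtcaacaGTGCCAAtaaggggtgagg
A match of letters is a description of these windows and does not show that the microRNA binds there.

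No member differed between the genotypes past the threshold, a Benjamini-Hochberg adjusted p under 0.05 in limma on log2(FPKM + 1) (0 of 7 members, against 0% of the 15061 genes tested). At an unadjusted p under 0.05 the count was 0 of 7, against 5.52% of all genes. FPKM are fragment numbers scaled by the authors' software to transcript length and library depth, so levels can be set side by side between genes. Of the 7 genes, 4 had a higher and 3 a lower mean in knock-out, a split that moved to 6 higher and 1 lower with quantile normalization and to 2 higher and 5 lower with the trend of each library along transcript length taken out. The median log2 fold change (knock-out minus wild type) was 0.010, against 0.014 over all genes tested. Their fold changes ran from -0.16 for Slc32a1 to 0.26 for Gad2. The 95% intervals of the 5 other members reached no further than -0.32 and 0.44 on the log2 scale.

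**Figure D1:**
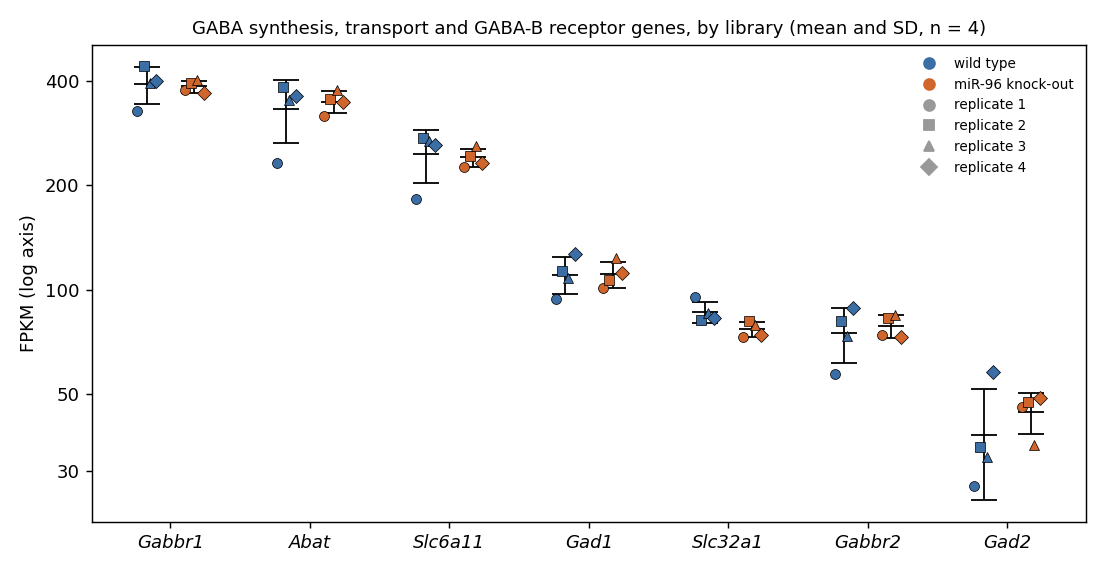
FPKM (log axis) of the 7 genes in each of 4 wild-type (blue) and 4 miR-96 knock-out libraries (orange), ordered by mean level, with the replicate number given by the symbol and bars for mean and SD. Genotypes overlap in every gene except Slc32a1, where the knock-out libraries (73.2 to 81.4) sit just below the wild-type libraries (81.9 to 95.2), and wild type replicate 1 is the lowest library in the 6 other genes.

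Estimated depth was 32000000 to 43100000 fragments per library, and the member of lowest level, Gad2, then rested on about 5200 fragments in its lowest library. Wild type replicate 1 stood apart, with a median correlation of 0.96 across genes with the other libraries against 0.98 to 0.99 for the rest. The tenth of genes with the longest transcripts lay 0.39 below their 8-library mean in it on the log2(FPKM + 1) scale, against deviations of -0.094 to 0.21 elsewhere. Mir96 was listed at 0 FPKM in all libraries, but libraries of this kind do not measure mature microRNAs, so this checks nothing about the genotype labels. Markers of the labelled tissue were present, with 16 of 16 markers of inhibitory and 16 of 16 of excitatory dorsal horn neurons above a mean of 1 FPKM.

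Gabbr1 was the most abundant member and Gad2 the least. Over the 8 libraries the mean ± SD was 389 ± 32.7 FPKM for Gabbr1, 341 ± 48.3 for Abat, 244 ± 29.9 for Slc6a11, 111 ± 10.9 for Gad1, 81.7 ± 6.90 for Slc32a1, 76.9 ± 9.91 for Gabbr2 and 41.3 ± 10.2 for Gad2 (n = 8). The order of neighbours held within all 8 libraries for Gabbr1 over Abat, Abat over Slc6a11, Slc6a11 over Gad1 and Gabbr2 over Gad2, and within 7 for Gad1 over Slc32a1. Slc32a1 and Gabbr2 could not be ordered, with Slc32a1 higher in 4 of 8 libraries. Gabbr1 lay at percentile 98.8 of the mean levels of tested genes and Gad2 at 79.6, so the degrading enzyme, the glial transporter and the ligand-binding receptor subunit stood above the synthetic enzymes and the vesicular transporter in this tissue.

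Of the decarboxylase genes, Gad1 was nearly level between genotypes and Gad2 had the widest spread of all members on the log2 scale. Gad1 (ENSMUSG00000070880, chr2:70553072-70602014, plus strand), which encodes the enzyme that makes most basal GABA, reached 94.2, 113, 108 and 127 FPKM in the wild-type libraries (replicates 1 to 4, the order used throughout) and 101, 107, 124 and 112 in the knock-out libraries. The groups overlapped throughout. The means were 110.5 ± 13.5 and 111.0 ± 9.65 FPKM (SD, n = 4 each), which gave a log2 fold change of 0.010 (SE 0.11, 95% interval -0.23 to 0.25, limma adjusted p = 0.973). The antisense gene Gad1os overlaps Gad1, and since the strand setting of the counting is not stated its reads cannot be told apart. It was listed at no more than 0.815 FPKM, a value from the same counting that does not bound its share of the Gad1 reads.

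Gad2 (ENSMUSG00000026787, chr2:22622205-22693874, plus strand), the vesicle-associated enzyme tied to GABA release during activity, varied most of the 7 genes on the log2 scale. It was at 27.1, 35.1, 32.9 and 57.8 FPKM in wild type and at 46.0, 47.4, 35.6 and 48.6 in knock-out. The highest library of all was a wild-type one, replicate 4, and knock-out replicate 3 lay beside wild type replicates 2 and 3. The means were 38.2 ± 13.5 and 44.4 ± 5.98 FPKM (SD, n = 4 each), which gave a log2 fold change of 0.26 (SE 0.21, 95% interval -0.20 to 0.72, limma adjusted p = 0.633). The difference hung on single libraries. Without wild type replicate 4 it was 0.47 (limma adjusted p = 0.198), and without wild type replicate 1 it was 0.11 (adjusted p = 0.892). Library weights estimated from the data gave wild type replicate 3 a weight of 5.09 and wild type replicates 1 and 4 weights of 0.153 and 0.423. With these weights the difference was 0.40 and passed (limma adjusted p = 0.0495), among 1627 genes then called of the 15061 tested.

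The ratio of Gad2 to Gad1 fell into a low and a high set of libraries that crossed the genotypes. Wild type replicates 1, 2 and 3 had 0.287, 0.310 and 0.306 FPKM of Gad2 per FPKM of Gad1, and knock-out replicate 3 had 0.287. Wild type replicate 4 had 0.456, and knock-out replicates 1, 2 and 4 had 0.454, 0.444 and 0.434. No library lay between 0.310 and 0.434, and each genotype had 1 library in the set that held the other genotype's remaining 3. On the log2(FPKM + 1) scale the ratio was higher in knock-out by 0.25, which an exact two-sided permutation test did not separate from the spread between libraries (p = 0.486, adjusted p = 0.648 over 4 ratios; the smallest p possible with 4 against 4 is 0.0286). It was 0.39 without wild type replicate 4 and 0.40 without knock-out replicate 3 (exact permutation test, p = 0.143 for each). The 4 libraries of the high set were also those in which the tenth of genes with the longest transcripts deviated most upward, by 0.076, 0.21, 0.15 and 0.093 in wild type replicate 4 and knock-out replicates 1, 2 and 4, against -0.39, -0.094 and -0.045 in wild type replicates 1, 2 and 3 and 0.012 in knock-out replicate 3. Gad2 has a longest annotated transcript of 5744 nt, Gabbr2 one of 5750 nt and Gabbr1 one of 5248 nt. Gabbr2 did not divide the libraries in this way. It deviated from its mean by 0.22, -0.044, 0.12 and -0.063 in wild type replicate 4 and knock-out replicates 1, 2 and 4. In wild type replicates 1, 2 and 3 it deviated by -0.41, 0.089 and -0.051, and in knock-out replicate 3 by 0.15 (log2 scale). Once the trend with transcript length was taken out of each library the log2 difference of the ratio was 0.15 (exact permutation test, p = 0.486) and the Gad2 log2 fold change was 0.13 (limma adjusted p = 0.80). The part of transcript length in the split between libraries was not tested.

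**Figure D2:**
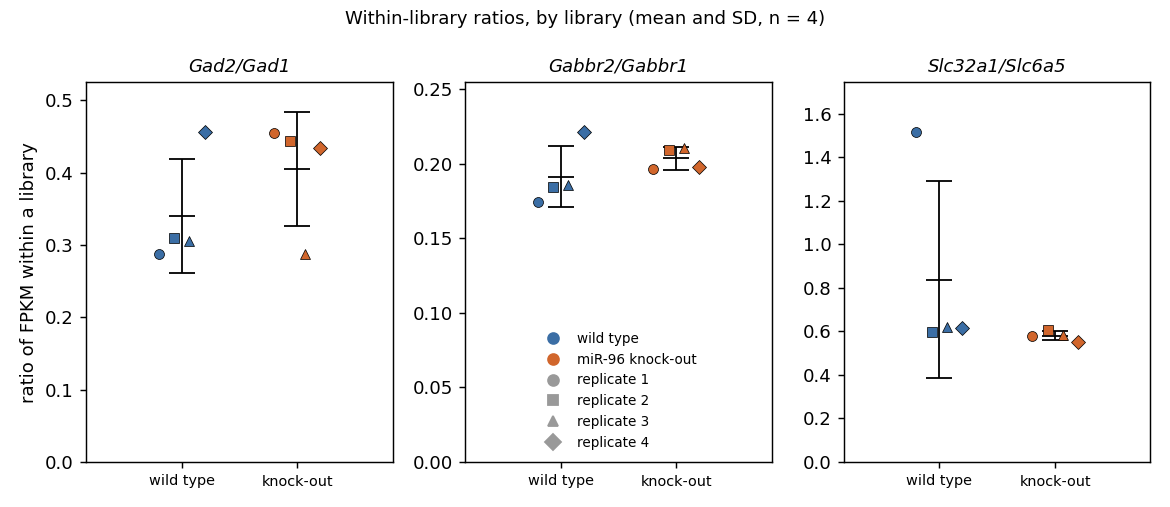
Ratio of FPKM of 2 genes within each library (linear axes from 0), wild type in blue and knock-out in orange, symbols by replicate number, bars for mean and SD. The Gad2/Gad1 ratio lies at 0.287 to 0.310 in 3 wild-type libraries and 1 knock-out library and at 0.434 to 0.456 in the other 4, and the Slc32a1/Slc6a5 ratio is 1.52 in wild type replicate 1 and at most 0.619 in the other 7.

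Slc32a1 was the only member whose groups did not overlap. The gene (ENSMUSG00000037771, chr2:158610767-158615748, plus strand) was at 95.2, 81.9, 85.6 and 82.9 FPKM in wild type and at 73.2, 81.4, 79.0 and 74.3 in knock-out. Each knock-out library lay below each wild-type library, though knock-out replicate 2 and wild type replicate 2 were less than 1 FPKM apart. The same order, all 4 knock-out libraries below all 4 wild-type libraries, was found in 1.12% of all genes tested and in 1 of the 7 members. The reverse order was found in 1.91% of genes and in 0 of the 7. The means were 86.4 ± 6.08 and 77.0 ± 3.86 FPKM (SD, n = 4 each), which gave a log2 fold change of -0.16 (SE 0.081, 95% interval -0.34 to 0.018, limma adjusted p = 0.62), so the gene did not pass. Its log2 fold change was negative in all 18 alternative settings run, from -0.19 to -0.083, and the value of smallest size came with length and GC trends removed.

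Slc32a1 is active in GABA and glycine neurons, and its level was set against Slc6a5, the glycine transporter GlyT2 that marks glycine neurons. Slc6a5 was at 62.8 FPKM in wild type replicate 1 and at 127 to 138 in the other 7 libraries, while Slc32a1 had its highest value in that library. The ratio of Slc32a1 to Slc6a5 was therefore 1.52 in wild type replicate 1, from 0.597 to 0.619 in wild type replicates 2 to 4 and between 0.553 and 0.606 in knock-out. Its log2 difference between genotypes was -0.40 (exact two-sided permutation test, p = 0.0571, adjusted p = 0.229 over 4 ratios) and -0.072 without wild type replicate 1 (exact permutation test, p = 0.114), and -0.20 with the length trend removed. In bulk tissue fewer cells of a type and less RNA per cell cannot be told apart. Markers of inhibitory dorsal horn neurons gave the values beside which the member can be read: 10 of 16 had a lower mean in knock-out, 2 of them at an unadjusted p under 0.05 in limma (Npy at 45.2 ± 6.02 and 35.1 ± 7.59 FPKM, Gal at 11.6 ± 2.68 and 8.92 ± 0.694, SD, n = 4 each) and none past the adjusted threshold. Over all genes tested 53.1% had a higher mean in knock-out and 5.52% an unadjusted p under 0.05. The summed level of the inhibitory markers ran from 448 to 479 FPKM in wild type and from 391 to 456 in knock-out. Markers of excitatory dorsal horn neurons gave much the same count, with 9 of 16 lower in knock-out, a median log2 fold change of -0.033 as for the inhibitory markers (-0.033), and sums of 661 to 884 FPKM in wild type and 582 to 803 in knock-out. Only Maf, named here after its values were seen, had an unadjusted p under 0.05 among those 16, and it was higher in knock-out (11.5 ± 1.90 and 14.7 ± 0.514 FPKM, SD, n = 4 each). Pax2, a transcription factor of the inhibitory lineage, was at 15.3 ± 3.16 and 15.1 ± 1.43 FPKM. The part of cell makeup in the Slc32a1 values was not tested.

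Clearance genes had their lowest values in wild type replicate 1 and a narrow range elsewhere. Slc6a11 (ENSMUSG00000030307, chr6:114131241-114249952, plus strand) encodes GAT3, the GABA transporter of astrocytes. It was at 183, 274, 269 and 261 FPKM in wild type and at 226, 244, 260 and 233 in knock-out. Wild type replicate 1 was far below the other 3 wild-type libraries, which in turn were all above the 4 knock-out libraries. The log2 fold change was -0.018 (SE 0.13, 95% interval -0.32 to 0.28, limma adjusted p = 0.963) and without wild type replicate 1 it was -0.16 (SE 0.069, limma adjusted p = 0.829).

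Abat (ENSMUSG00000057880, chr16:8513429-8621568, plus strand), which breaks GABA down in mitochondria, was at 233, 386, 353 and 362 FPKM in wild type and at 317, 355, 376 and 349 in knock-out. The means were 333 ± 68.4 and 349 ± 24.4 FPKM (SD, n = 4 each), which gave a log2 fold change of 0.090 (SE 0.15, 95% interval -0.26 to 0.44, limma adjusted p = 0.813). Without wild type replicate 1 its sign changed, to -0.073 (limma adjusted p = 0.838). Neither of the 2 members with miR-96 sites in the UTR searched, Gad2 and Abat, passed, and neither did any other of the 15061 genes tested.

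Markers of astrocytes, the cells in which Slc6a11 is mainly made, summed to 4413 to 4926 FPKM in wild type and 4463 to 4795 in knock-out. None of 12 passed, and 9 had a higher mean in knock-out.

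Neither GABA-B subunit gene passed the test, and each had its lowest value in wild type replicate 1. Gabbr1 (ENSMUSG00000024462, chr17:37045966-37075067, plus strand), the subunit that binds GABA, was at 328, 441, 396 and 402 FPKM in wild type and at 376, 396, 402 and 370 in knock-out. The groups overlapped, and the log2 fold change was -0.014 (SE 0.11, 95% interval -0.25 to 0.22, limma adjusted p = 0.964). Gabbr2 (ENSMUSG00000039809, chr4:46662305-46991873, minus strand), the subunit that carries Gabbr1 to the cell surface and couples to the G protein, was at 57.0, 81.2, 73.6 and 88.9 FPKM in wild type and at 74.0, 82.8, 84.7 and 73.0 in knock-out. Wild-type libraries held its lowest and its highest value. The log2 fold change was 0.080 (SE 0.13, 95% interval -0.22 to 0.38, limma adjusted p = 0.808) and without wild type replicate 1 it was -0.045 (adjusted p = 0.907).

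The receptor works as a pair of subunits, and the messages stood at unequal levels in every library. There were 0.174, 0.184, 0.186 and 0.221 FPKM of Gabbr2 per FPKM of Gabbr1 in wild type and 0.197, 0.209, 0.211 and 0.197 in knock-out. The knock-out values lay within the wild-type range (log2 difference 0.093, exact two-sided permutation test, p = 0.20, adjusted p = 0.40). That difference moved with single choices, to 0.16 without wild type replicate 4 (exact permutation test, p = 0.0286, adjusted p = 0.114), 0.051 without wild type replicate 1 (p = 0.514 in the same exact test) and 0.0036 with quantile normalization. These are message levels of genes with several annotated transcripts, 11 for Gabbr1 and 4 for Gabbr2, and the deposited values do not divide them.

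**Figure D3:**
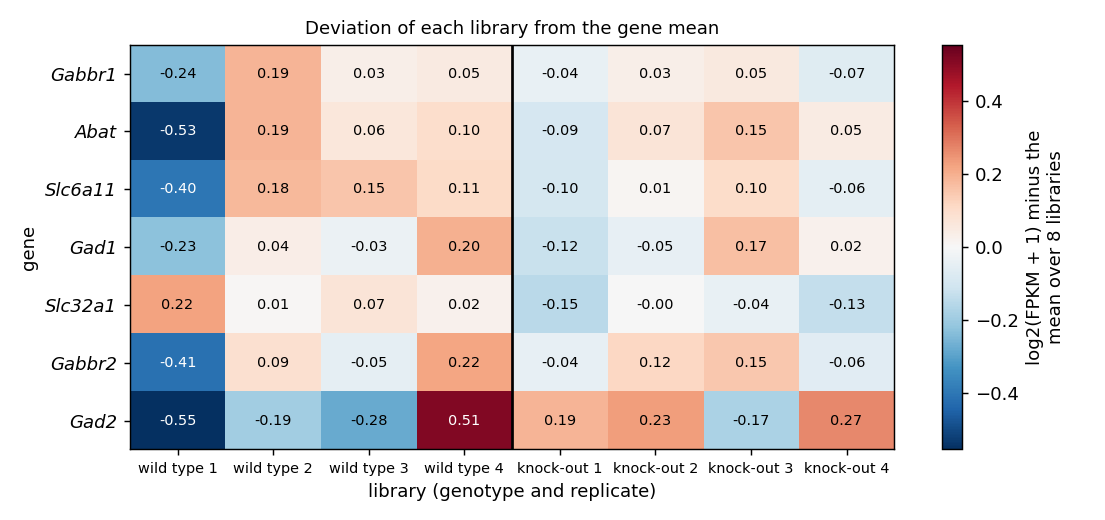
Deviation of log2(FPKM + 1) in each library from the gene's mean over the 8 libraries, genes in rows by level and libraries in columns, with red for higher and blue for lower. Wild type replicate 1 is lowest in 6 rows (by 0.23 to 0.55) and highest in the Slc32a1 row, and Gad2 is the row with the widest range.

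Wild type replicate 1 was the lowest of the 8 libraries in 6 of the 7 members, where 32.0% of all tested genes had it lowest, and the highest in Slc32a1, whose annotated transcript of 2797 nt is the shortest of the 7. The SD was larger in wild type than in knock-out for 7 of 7 members and for 74.1% of all genes tested. Wild type replicate 1 accounted for part of this. Without it the wild-type SD was larger in 4 of 7 members and in 55.8% of genes. It was then below the knock-out SD for Slc32a1 (1.91 against 3.86 FPKM), Slc6a11 (6.74 against 14.7) and Abat (16.7 against 24.4). It stayed above for Gad2 (13.8 against 5.98 FPKM), Gabbr1 (24.6 against 15.5), Gabbr2 (7.64 against 5.99) and, narrowly, Gad1 (9.73 against 9.65). Leaving out wild type replicate 1 could only lower the fold changes of the 6 members in which it was lowest. Without it 6 of 7 members had a lower mean in knock-out (median log2 fold change -0.073). Over all genes tested the median was 0.0013 and 50.4% were higher, but fewer of those genes had this library lowest, so the comparison is not like with like. Gad2 alone had a higher mean, at 0.11. Gad1 was at -0.063, Slc32a1 at -0.12 and Gabbr1 at -0.097, and none passed (lowest limma adjusted p = 0.829). By the mean absolute difference between profiles centred on the gene mean, Abat and Slc6a11 were the most alike pair of members (0.057 on the log2 scale), then Slc6a11 and Gabbr1 (0.060), while Gad2 differed from each other member by 0.24 to 0.36. All of these profiles share the libraries, so the low values of wild type replicate 1 enter each distance.

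The 3 genes most like each member over the 8 libraries were taken by the same measure. Among those of Gabbr1 were Syp (mean absolute difference 0.018), which encodes the synaptic vesicle protein synaptophysin, and the phosphatase gene Ppm1a (0.024). Gad2 was closest to Tcaf1 (0.057), Mllt3 (0.058) and Ncoa7 (0.061), and Slc32a1 to Ube2d2a (0.026), Ttyh1 (0.032) and Hoxd9 (0.033). For Gad1 they were Pkia (0.029), Sf3a2 (0.029) and Zfp395 (0.031), for Slc6a11 Ndufs1 (0.030), Peg13 (0.034) and Dnajc5 (0.036), for Abat Acot11 (0.028), Pip4k2b (0.033) and Eif2ak3 (0.036), and for Gabbr2 Ocrl (0.027), Cnnm1 (0.031) and Grb10 (0.031). Between 2575 and 5672 genes were candidates for each member, and no test was made of these matches.

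No other gene of GABA handling and GABA-B signalling passed. Of 27 listed, 26 were tested, 0 passed (limma, 0 at an unadjusted p under 0.05 as well), and Kcnj5 lay below the filter at no more than 0.175 FPKM. A higher mean in knock-out was found in 19 of 26, against 53.1% of all genes tested, and in 13 of 26 once the length trends were taken out. The median log2 fold change was 0.066, against 0.014 over all genes, and -0.0028 without the length trends, against -0.022 over all genes. Without wild type replicate 1 a higher mean was found in 16 of 26, against 50.4% of all genes, with a median of 0.031 against 0.0013. With estimated library weights 1 of the 26 passed in limma, against 1627 of all 15061 genes tested.

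Genes that supply glutamate for GABA synthesis were spread around 0. Gls2, a glutaminase gene, had a log2 fold change of -0.098 (SE 0.093) and Glul, the astrocytic glutamine synthetase and the most abundant gene of the list at 2171 ± 187 and 2110 ± 180 FPKM (SD, n = 4 each), one of -0.041 (SE 0.11). The glutamine carriers Slc38a1, Slc38a2, Slc38a3 and Slc38a5 were at 0.19, 0.16, -0.18 and 0.047. For the cofactor of the decarboxylases, the kinase gene Pdxk was at 0.049 (SE 0.12).

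Aldh5a1, which removes the product of Abat, was at 14.9, 19.3, 19.4 and 19.7 FPKM in wild type and at 17.8, 18.4, 20.3 and 18.1 in knock-out, for a fold change of 0.029 on the log2 scale (SE 0.11), with the low value of wild type replicate 1 seen in Abat as well. The remaining transporter genes were higher in replicates 1 and 3 than in replicates 2 and 4 of each genotype. Slc6a13, a GABA transporter of the meninges, was at 10.9, 5.67, 12.5 and 6.63 FPKM in wild type and at 14.8, 6.51, 12.9 and 6.25 in knock-out. Slc6a12 was at 1.66, 0.520, 2.00 and 1.28 and at 2.41, 0.867, 1.88 and 0.806 FPKM. Markers of meningeal fibroblasts had mean log2(FPKM + 1) values of 3.89, 3.48, 4.02 and 3.76 in wild type and 4.73, 3.56, 4.24 and 3.65 in knock-out, highest in the same replicates. Of 10 such markers 9 were tested, none passed, and all 9 had a higher mean in knock-out. Their summed level ran from 110 to 180 FPKM in wild type and from 117 to 288 in knock-out, and their part in the 2 transporters was not tested.

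**Figure D4:**
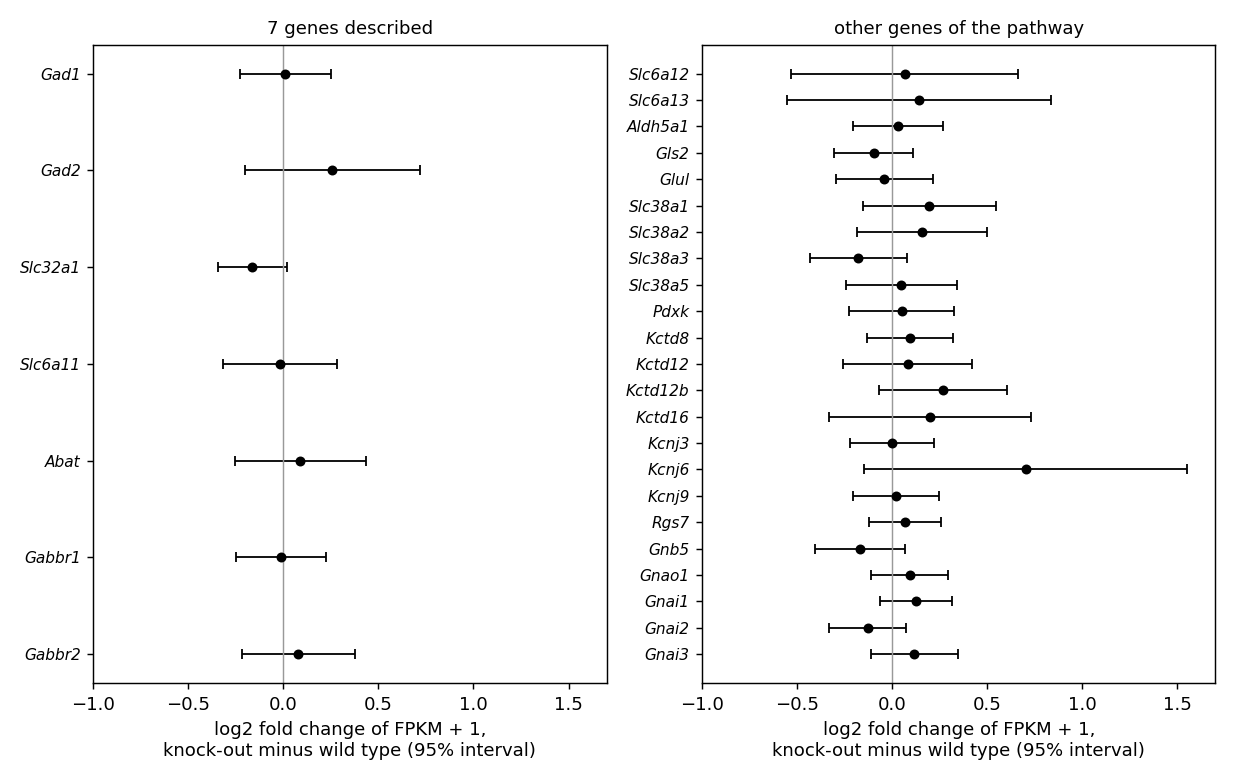
Log2 fold change of FPKM + 1, knock-out minus wild type, with limma's 95% interval, for the 7 genes (left) and other tested genes of the pathway (right), n = 4 libraries per genotype. Each interval holds 0, and the widest is that of Kcnj6, from -0.15 to 1.55.

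On the receptor side, the KCTD proteins bind Gabbr2 and shape its signal, and their genes were expressed at low levels. Kctd8 was at 6.72 ± 0.807 and 7.20 ± 0.336 FPKM, Kctd12 at 6.79 ± 1.79 and 7.09 ± 0.452, Kctd12b at 1.05 ± 0.296 and 1.47 ± 0.302, and Kctd16 at 1.11 ± 0.552 and 1.38 ± 0.529 (SD, n = 4 each). None of the 4 passed (lowest limma adjusted p = 0.62). For the potassium channels that GABA-B receptors open, Kcnj3 and Kcnj9 had log2 fold changes of -0.0016 (SE 0.10) and 0.020 (SE 0.10). Kcnj6 had the largest fold change of the list, 0.70 (SE 0.38, limma adjusted p = 0.62), and much of it rested on wild type replicate 1. That library held 0.499 FPKM of Kcnj6, against 5.78, 3.74 and 3.14 in wild type replicates 2 to 4 and 5.23, 4.67, 5.98 and 4.64 in the knock-out libraries, and without it the log2 fold change was 0.26. The G protein genes Gnao1, Gnai1, Gnai2 and Gnai3 were at 0.091, 0.12, -0.13 and 0.12, and Rgs7 and Gnb5, whose products together shut off this signal, at 0.067 (SE 0.084) and -0.17 (SE 0.11).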

How the data were processed

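Libraries were made from polyadenylated RNA with NEBNext Ultra reagents, per the labels' protocols. The submitters' processing notes name HISAT2, SAMtools and Cufflinks; versions, options and the strand setting were not given in the sources used here. In each of the 8 files the authors deposited 1 FPKM value per gene. The notes list mm8, but per the file headers' locus column 45128 loci equalled the GRCm38 annotation (GENCODE M21), 91.5% of identifiers with a symbol, so coordinates are GRCm38, numbered from 1.

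FPKM are not counts, so no count model was fitted. The 15061 genes whose mean FPKM reached 1 were compared with limma 3.58.1 in R 4.3.3 (trend and robust, two-sided) on log2(FPKM + 1), a scale that understates the change of low genes, with Benjamini-Hochberg adjustment over all of them. Ratios were compared by exact permutation over the 70 splits. Depth was estimated from 1-fragment steps of FPKM in genes with 1 transcript of at least 3000 nt, assuming fragments of 200 nt; 94.1% to 97.2% of these low values were whole to within 0.15.

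The 7 genes, the lists (27 pathway genes, markers of 13 cell types) and the tests were chosen with earlier results of these data known. Named were the 7 genes, the tested pathway genes, ratio partners and, for each of the 7, the 3 tested genes of smallest profile difference (mean FPKM of at least 5, SD 0.67 to 1.5 times the gene's own, no predicted models, pseudogenes or mitochondrial genes); some genes under this rule, and 1 of the 4 ratios, are not reported here. Alternatives were another pseudocount, other filters, 2 rescalings, removal of length and GC trends, limma without trend and robust options, estimated library weights, the replicate number as a block, and each library left out.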

Additional observations from a re-analysis of the deposited data

Results flagged for a closer look

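In 118 groups of 4 libraries checked, 11 held a library set apart from the other 3 by a gap, relative to the group's range, above Dixon's 95% critical value. Chance gives this in about 1 of 20 independent groups. These groups were not independent, so the count cannot be set against that rate. Hoxd9, Peg13 and Ncoa7 had been picked for profiles like those of members, and the ratios reuse values of single genes. Of the 11, 6 were wild type replicate 1. It held 182.8 FPKM of Slc6a11 against 261 to 274 in wild type replicates 2 to 4, 14.9 of Aldh5a1 against 19.3 to 19.7, 62.8 of Slc6a5 against 135 to 138, 26.7 of Hoxd9 against 21.9 to 22.6, 81.5 of Peg13 against 110 to 114, and a Slc32a1/Slc6a5 log2 ratio of 0.59 against -0.74 to -0.68. Knock-out replicate 3 held 326.7 FPKM of Gnai2 against 281 to 286 in its group and 25.4 of Ncoa7 against 34.1 to 35.3. Knock-out replicate 1 held 126.8 FPKM of Slc6a5 against 134 to 135.

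The Gad2/Gad1 log2 ratio had such a library in each genotype, in opposite directions: -1.12 in wild type replicate 4 against -1.76 to -1.66 for the rest of its group, and -1.77 in knock-out replicate 3 against -1.19 to -1.12 for the rest of its group.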

How the results depend on the processing

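None of the 7 genes passed in limma in any alternative but 1. With estimated library weights 1627 of the 15061 genes tested passed, among them 1 of the 7 (Gad2, 0.40) and 1 of the pathway list. The log2 fold changes of Gad1 and Abat turned to -0.015 and -0.035 in that setting. Gad2 stayed positive and Slc32a1 negative in all 18 alternatives. Signs of members near 0 turned with rescaling or trend removal: Gad1 to -0.0080 (median-ratio rescaling), -0.012 (length trend removed) and -0.021 (length and GC trends removed), Gabbr2 to -0.044 and -0.0070 with those 2 trend removals, and, with quantile normalization, Slc6a11 to 0.091 and Gabbr1 to 0.11. Leaving out each library in turn gave log2 fold changes of -0.063 to 0.078 for Gad1, -0.16 to 0.039 for Slc6a11, -0.073 to 0.17 for Abat, -0.097 to 0.046 for Gabbr1, -0.045 to 0.17 for Gabbr2, 0.11 to 0.47 for Gad2, -0.19 to -0.12 for Slc32a1, and 0 to 1 genes past the threshold over all genes. For the log2 ratios it gave 0.18 to 0.40 (Gad2/Gad1), 0.051 to 0.16 (Gabbr2/Gabbr1) and -0.52 to -0.072 (Slc32a1/Slc6a5), and removing length and GC trends gave 0.12, 0.080 and -0.14; none passed the adjusted threshold in these settings. With the replicate number as a block 0 genes passed, and Gad2 was at 0.26 (limma adjusted p = 0.654). What the replicate number stands for is not stated in the labels. Same-numbered libraries had correlations of deviations of -0.11, -0.055, 0.024 and 0.14. The highest correlations of knock-out replicates 1 to 4 with any wild-type library were 0.21, 0.23, 0.21 and 0.14. Slc6a12, Slc6a13 and the meningeal markers were higher in replicates 1 and 3 of each genotype. The cause of these changes was not tested. For the 7 genes the number of libraries, 4 per genotype, limits the precision.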
